A study of Mus musculus with 6 samples.

Results

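The genes described here encode the enzymes that build cholesterol and fatty acids and the SREBP proteins that control them. They were 32 named genes in RNA from group 2 innate lymphoid cells (ILC2s) sorted from mouse lung. They were chosen by symbol, with earlier results of these data known. Of the 32, 31 were measured among the 18478 genes of the count table, and all 31 were among the 14084 genes tested; Scd1 was not analysed here. They fall into a sterol branch of 19 genes, a fatty acid branch with 7 of 8 measured and 5 SREBP regulators. ILC2s live in tissues, lack rearranged antigen receptors and secrete type 2 cytokines. The series compared 3 CB2 KO libraries with 3 WT libraries and asked how the ILC2 transcriptome depends on CB2, the cannabinoid receptor that Cnr2 encodes. Mice of both groups were BALB/c and 6 weeks old, and were given recombinant IL-33 through the nose 3 times, 1 µg each time. Cells of both groups were sorted and kept 24 h in IL-7 and IL-2 (10 ng/mL of either), so every library comes from cells already activated in the animal and kept in cytokine. The labels give neither the construction of the CB2 KO allele nor a mouse for each library. The spread within a group, and with it every p-value, may therefore be technical.

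SREBP-2 and SREBP-1, encoded by Srebf2 and Srebf1, are transcription factors that are made as membrane proteins of the endoplasmic reticulum. When membrane sterols are low, the escort protein SCAP carries them to the Golgi, where they are cut free to enter the nucleus and switch on sterol and fatty acid genes. When sterols are plentiful, the INSIG proteins hold SCAP back. Lymphocytes use the pathway when they grow and divide, because new membrane needs sterols and acyl chains.

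Levels are in CPM, estimated counts per 1000000 of the library size after scaling by TMM factors. The libraries held 17141698 to 21103769 counts in CB2 KO and 17850840 to 21621008 in WT. Cnr2 itself was at 9.24, 1.60 and 3.84 CPM in CB2 KO replicates 1 to 3, against 9.32, 17.4 and 15.8 CPM in WT replicates 1 to 3. The library labelled CB2 KO replicate 1 was therefore level with the lowest WT library for the targeted gene, and all directions below include it unless stated. Genes with any count numbered 15005 in that library, against 15640 to 16514 in the other 5, and of the genes averaging 10 to 100 counts 28.3% were at 0 in it, against 12.2 to 21.8% in the others. The 12 ILC2 markers, among them Gata3 and Il1rl1, were detected in every library and summed to 13390.0 to 15770.0 CPM in CB2 KO and 12920.0 to 14320.0 CPM in WT. That sum is mostly the cytokine gene Il5, at 9021 ± 1070 CPM in CB2 KO and 7343 ± 469.6 CPM in WT (SD, n = 3 each). Of the 12 markers 9 had a negative log2 difference and 0 passed the test. In 6 of them (Gata3, Il7r, Il2ra, Icos, Klrg1 and Thy1) every CB2 KO library lay below every WT library. So it was in 13 of the 31 genes described here and in 7.18% of all genes tested. For Il5 every CB2 KO library lay above every WT library. Among markers of other cells 0 passed the test, but some of their sums did not overlap between the groups. Every CB2 KO library lay above every WT library in 3 of 6 macrophage and monocyte markers. The same held for 3 of 8 mast cell and basophil markers, and for 6.88% of all genes tested. The 6 measured of 10 macrophage and monocyte markers summed to 152 to 175 CPM in CB2 KO and 12.1 to 59.2 CPM in WT, and all 5 that were tested had the higher mean in CB2 KO. Chil3 made up 107.6 to 142.8 CPM of it in CB2 KO and 0.559 to 47.5 CPM in WT, while Mrc1 was at 0 in 2 of 3 CB2 KO and 3 of 3 WT libraries. The 8 mast cell and basophil markers summed to 48.3 to 86.9 CPM in CB2 KO and 17.5 to 28.3 CPM in WT, and 6 of 6 tested had the higher mean in CB2 KO. Mcpt4 and Ms4a2 were each at 0 in 2 of 3 CB2 KO libraries and in at least 2 of 3 WT libraries. T cell markers summed to at most 4.13 CPM in CB2 KO and 1.58 CPM in WT, B cell markers to 0 in CB2 KO and at most 1.12 CPM in WT, and epithelial markers to 25.6 to 39.8 CPM in CB2 KO and 30.8 to 127 CPM in WT. The part of these markers in the results below was not tested.

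Most sterol and fatty acid genes had a lower mean in CB2 KO cells, by a modest amount, and none passed the test on its own. Because the genes were chosen with earlier results of these data known, the shares below describe and do not test. Of the 31 genes, 29 had a negative log2 difference (CB2 KO over WT), with a median of -0.36 and a range of -0.90 to 0.18. Over all genes tested 50% were negative, as were 50.1% of those with an average of 100 counts or more, a level that all 31 members reach, and the median was 0.00. By the quasi-likelihood test of edgeR, with p-values adjusted over all genes by the Benjamini-Hochberg method, 0 of 31 passed the threshold of 0.05. Of all genes 0.107% did, 0.0639% lower and 0.0426% higher in CB2 KO, and the smallest adjusted p of a member was 0.29, for Fdft1. At an unadjusted p under 0.05, 9 of 31 had a lower mean in CB2 KO, against 4.27% of all genes, and 0 a higher one, against 4.33%; either way it was 8.6% of all genes. These 9 were Fdps, Fdft1, Lss, Cyp51, Sc5d, Acly, Fasn, Elovl6 and Insig1. DESeq2 on the same counts called 1 of 31, Fdft1 (adjusted p = 0.000102), where it called 2.58% of all genes, 1.39% as lower in CB2 KO. In 13 of 31 genes every CB2 KO library lay below every WT library, which held for 7.18% of all genes tested and for 7.91% of those averaging 100 counts or more. In 0 of 31 genes did every CB2 KO library lie above every WT library, against 6.88% of all genes. Summed over the 31 genes, the level was 2470.0, 3133 and 2923 CPM in CB2 KO replicates 1 to 3, against 3467, 3481 and 3597 CPM in WT replicates 1 to 3. The 2 groups do not overlap in this sum, and CB2 KO replicate 1 was the lowest. In bulk RNA such as this, fewer cells that express a gene and less of its RNA per cell cannot be told apart.

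**Figure D1:**
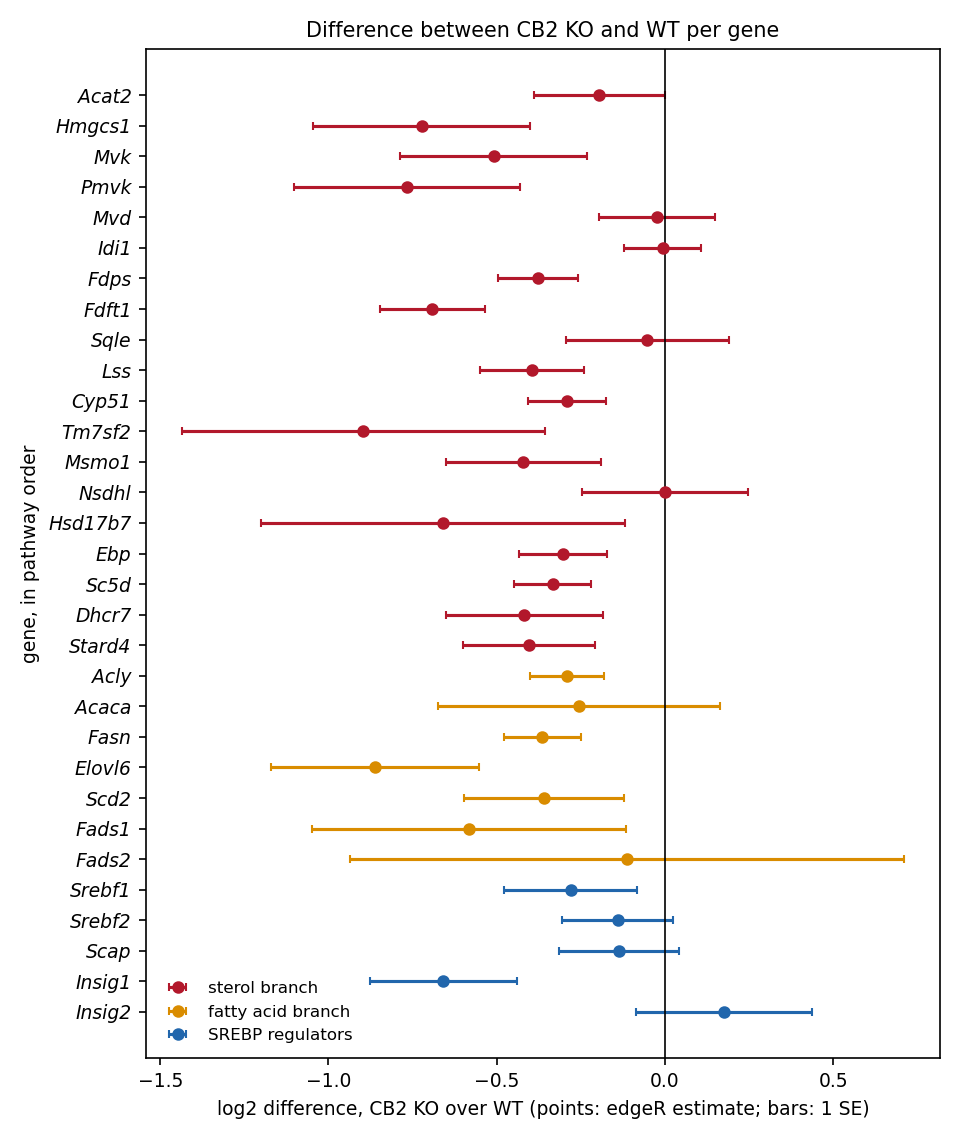
Log2 difference (CB2 KO over WT) of each gene, with points for the edgeR estimate and bars for 1 SE, in pathway order from top to bottom. Of 31 points, 29 lie left of 0; the 2 others are Nsdhl, at 0.0002, and Insig2, at 0.18.

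The promoters of these genes are shown because SREBPs bind DNA with partners. The genes were chosen by name as parts of these pathways, and whether any motif goes with a lower mean in CB2 KO was not tested. SREBPs bind sterol regulatory elements, usually beside sites for NF-Y, which binds CCAAT, and Sp1, which binds GGGCGG. RefSeq windows of the build GRCm38.p6, from 250 bases before to 50 after a start site, were matched by symbol to 25 of the 31 genes (33 windows). Fdps, Fdft1, Sqle, Stard4, Scd2 and Fads1 had none. Both strands were searched. CCAAT was in the windows of 20 of 25 members (80.0%), against 43.6% of the 9343 tested genes with a window and 41.1% of all 27025 genes with one. It was in 14 of 15 sterol genes, 2 of 5 fatty acid genes and 4 of 5 regulators. GGGCGG was in 21 of 25 (84.0%), against 68.9% of tested genes and 38.2% of all genes, and the E-box CACGTG in 5 of 25, against 12.1% and 8.09%. The sterol regulatory element core TCACNCCAC was in 1 of 25, Hmgcs1, against 1.34% of tested genes and 1.44% of all genes. The element TCACCCCAC with an A before it was in 0 of 25, against 0.0428% of tested genes and 0.0999% of all genes. No match means only that these letters are not in the window. The stretches below are the bases before the start site for the member with the smallest p in each branch that has a window (Sc5d, Fasn and Insig1) and for Hmgcs1. Capitals mark TCACNCCAC and CCAAT or its reverse complement ATTGG. The Hmgcs1 stretch is chr13:119690101-119690350 on the plus strand and Sc5d is chr9:42264301-42264550 on the minus strand. Fasn is chr11:120824548-120824797 on the minus strand, and Insig1 is chr5:28071162-28071362 on the plus strand, cut where the GENCODE gene begins.
Hmgcs1: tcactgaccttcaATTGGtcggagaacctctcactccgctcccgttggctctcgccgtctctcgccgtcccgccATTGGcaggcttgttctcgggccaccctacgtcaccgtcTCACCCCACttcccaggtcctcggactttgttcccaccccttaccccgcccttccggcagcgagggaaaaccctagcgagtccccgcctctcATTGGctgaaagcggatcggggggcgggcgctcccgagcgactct
Sc5d: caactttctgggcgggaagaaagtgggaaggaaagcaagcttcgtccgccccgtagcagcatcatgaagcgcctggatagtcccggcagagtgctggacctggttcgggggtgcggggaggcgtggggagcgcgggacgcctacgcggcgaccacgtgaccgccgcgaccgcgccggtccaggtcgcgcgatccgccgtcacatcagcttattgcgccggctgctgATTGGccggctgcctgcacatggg
Fasn: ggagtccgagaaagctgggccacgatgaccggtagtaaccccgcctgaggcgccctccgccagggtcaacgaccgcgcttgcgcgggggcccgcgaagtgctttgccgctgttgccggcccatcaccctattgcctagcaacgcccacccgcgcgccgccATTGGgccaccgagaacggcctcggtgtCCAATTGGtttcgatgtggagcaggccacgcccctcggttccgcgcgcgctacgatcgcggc
Insig1: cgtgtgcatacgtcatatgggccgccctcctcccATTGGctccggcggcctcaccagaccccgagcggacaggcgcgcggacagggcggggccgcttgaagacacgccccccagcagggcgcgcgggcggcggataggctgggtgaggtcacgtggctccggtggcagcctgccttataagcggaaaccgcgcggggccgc
In the Hmgcs1 stretch the single TCACCCCAC lies 137 bases before the start site, with 3 ATTGG around it. Fasn holds CCAAT and ATTGG sharing 2 letters in CCAATTGG, and a further ATTGG upstream. Sc5d and Insig1 hold 1 ATTGG each.

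Within the sterol branch, 18 of 19 genes had a negative log2 difference, with a median of -0.39. In 9 of 19 every CB2 KO library lay below every WT library, against 7.18% of all genes tested. The branch starts with the mevalonate segment, 6 genes that turn acetyl-CoA into isoprene units. Hmgcs1, the HMG-CoA synthase (chromosome 13, 119690379 to 119708260, plus strand, mm10), was at 58.8, 123.0 and 71.1 CPM in CB2 KO replicates 1 to 3, against 169, 93.9 and 160 CPM in WT replicates 1 to 3. The groups overlap, since WT replicate 2 lay below CB2 KO replicate 2, and the log2 difference of -0.72 (SE 0.32) had an adjusted p of 0.601 by edgeR's test. Dropping single libraries moved the log2 difference of Hmgcs1 both ways, from -1.12 (CB2 KO replicate 2 dropped) to -0.51 (CB2 KO replicate 1 dropped). Pmvk, the phosphomevalonate kinase (chromosome 3, 89454541 to 89469013), was at 15.1, 15.5 and 30.8 CPM in CB2 KO, against 41.7, 28.1 and 31 CPM in WT. CB2 KO replicates 1 and 2 were low and replicate 3 lay within the WT range, at a log2 difference of -0.77 (SE 0.34). Mvk, the mevalonate kinase (chromosome 5, 114444269 to 114460591), was at 14.5, 15.0 and 11.7 CPM in CB2 KO and 19.5, 23.0 and 16.3 CPM in WT, with no overlap (log2 difference -0.51, SE 0.28). The other 3 genes of the segment lay close to WT. The decarboxylase gene Mvd averaged 45.0 ± 3.35 CPM in CB2 KO and 45.4 ± 4.24 CPM in WT (SD, n = 3 each). Idi1, the isomerase of the isoprene unit, averaged 172 ± 11.6 CPM in CB2 KO and 174 ± 19.7 CPM in WT, and the cytosolic thiolase gene Acat2 averaged 77.7 ± 15.0 and 89.4 ± 14.6 CPM. Reads of Idi1 can be shared with the processed pseudogene Gm13502, which is identical over 684 nt, and reads of Acat2 with Acat3, which is 97.7% identical over 1477 nt.

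Next come the steps from farnesyl diphosphate to lanosterol, the first sterol. In 3 of their 4 genes every CB2 KO library lay below every WT library, against 7.18% of all genes tested. Fdft1, the squalene synthase that commits farnesyl units to sterols (chromosome 14, 63145150 to 63179578, minus strand), was at 45.5, 40.7 and 39.7 CPM in CB2 KO replicates 1 to 3, against 71.2, 69.0 and 62.8 CPM in WT. The 2 groups were clearly apart, and spread little within themselves: the means were 41.9 ± 3.09 CPM in CB2 KO and 67.7 ± 4.37 CPM in WT (SD, n = 3 each), 38.0% lower. Its log2 difference was -0.69 (SE 0.16), the 127th smallest p of all genes tested. By edgeR the adjusted p of Fdft1 ran from 0.249 to 0.595 in the other settings, and by limma on counts and on the authors' normalized values it was 0.298 and 0.255. The gene shares 774 exonic bases with Ctsb on the opposite strand, and no source used here states a strand setting for the counting, so some of these reads may belong to Ctsb. Ctsb was at 300.5 ± 31.9 CPM in CB2 KO and 319 ± 23.5 CPM in WT, a log2 difference of -0.09 (SE 0.10). Fdps, which makes farnesyl diphosphate (chromosome 3, 89093588 to 89101959), was at 123, 113 and 127 CPM in CB2 KO, against 177, 146 and 146 CPM in WT, 22.6% lower. Its reads can be shared with the pseudogenes Gm3571 and Gm5873, and with the counts of its 4 listed copies added its log2 difference was -0.34 rather than -0.38. Lss, the lanosterol synthase (chromosome 10, 76531588 to 76557138), was at 93.1, 114.0 and 100.4 CPM in CB2 KO and 157, 114.6 and 132 CPM in WT. CB2 KO replicate 2 and WT replicate 2 were nearly level, so the groups of Lss just miss overlapping. Sqle, the squalene epoxidase and a rate-limiting enzyme, differed from its neighbours, at 118, 189 and 147 CPM in CB2 KO and 116, 201 and 157 CPM in WT. Its log2 difference was -0.05 (SE 0.24), and its libraries differed more within each group than the groups did.

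The 8 genes from lanosterol to cholesterol had a median log2 difference of -0.38, and 7 of them were negative. Cyp51, the lanosterol demethylase (chromosome 5, 4081145 to 4104746), had the highest mean of the branch over the 6 libraries in CPM, at 159, 187 and 156 CPM in CB2 KO, against 198, 190.0 and 230.4 CPM in WT. Its groups did not overlap, at 18.8% lower. Sc5d, the lathosterol oxidase (chromosome 9, 42251595 to 42264256), was at 111, 127 and 141 CPM in CB2 KO and 164, 154 and 156 CPM in WT. WT libraries were tight for Sc5d (158 ± 5.08 CPM) and all CB2 KO libraries lay below them (126 ± 15.1 CPM), with a log2 difference of -0.33 (SE 0.12). Ebp, the sterol isomerase (chromosome X, 8185329 to 8193512), was at 108, 96.5 and 85.5 CPM in CB2 KO and 115, 130.0 and 113 CPM in WT, again with no overlap. Msmo1, the methylsterol oxidase, was at 56.5, 102 and 112 CPM in CB2 KO, against 116, 127 and 117 CPM in WT. CB2 KO replicate 1 alone was far down for Msmo1, while the other 2 lay just under the WT range, and without it the log2 difference was -0.17 instead of -0.42. Hsd17b7, a ketosteroid reductase of the pathway, was at 7.75, 37.7 and 27.6 CPM in CB2 KO and 19.8, 44.8 and 53.8 CPM in WT, so both groups were wide. Dhcr7, the last reductase, averaged 29.2 ± 4.72 CPM in CB2 KO and 39.5 ± 7.06 CPM in WT with overlap. Nsdhl, a decarboxylating dehydrogenase, averaged 39.3 ± 10.8 and 40.2 ± 5.72 CPM. Tm7sf2, a sterol reductase, was low, at 4.60 ± 0.34 CPM in CB2 KO and 8.30 ± 4.96 CPM in WT, and overlaps Vps51 on the same strand over 532 exonic bases. Stard4, which carries cholesterol between membranes, was at 40.2, 36.4 and 45.5 CPM in CB2 KO and 63.3, 48.2 and 48.2 CPM in WT, and its groups did not overlap. Without WT replicate 1 the log2 difference of Stard4 was -0.26 instead of -0.40 and that of Tm7sf2 -0.32 instead of -0.90.

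**Figure D2:**
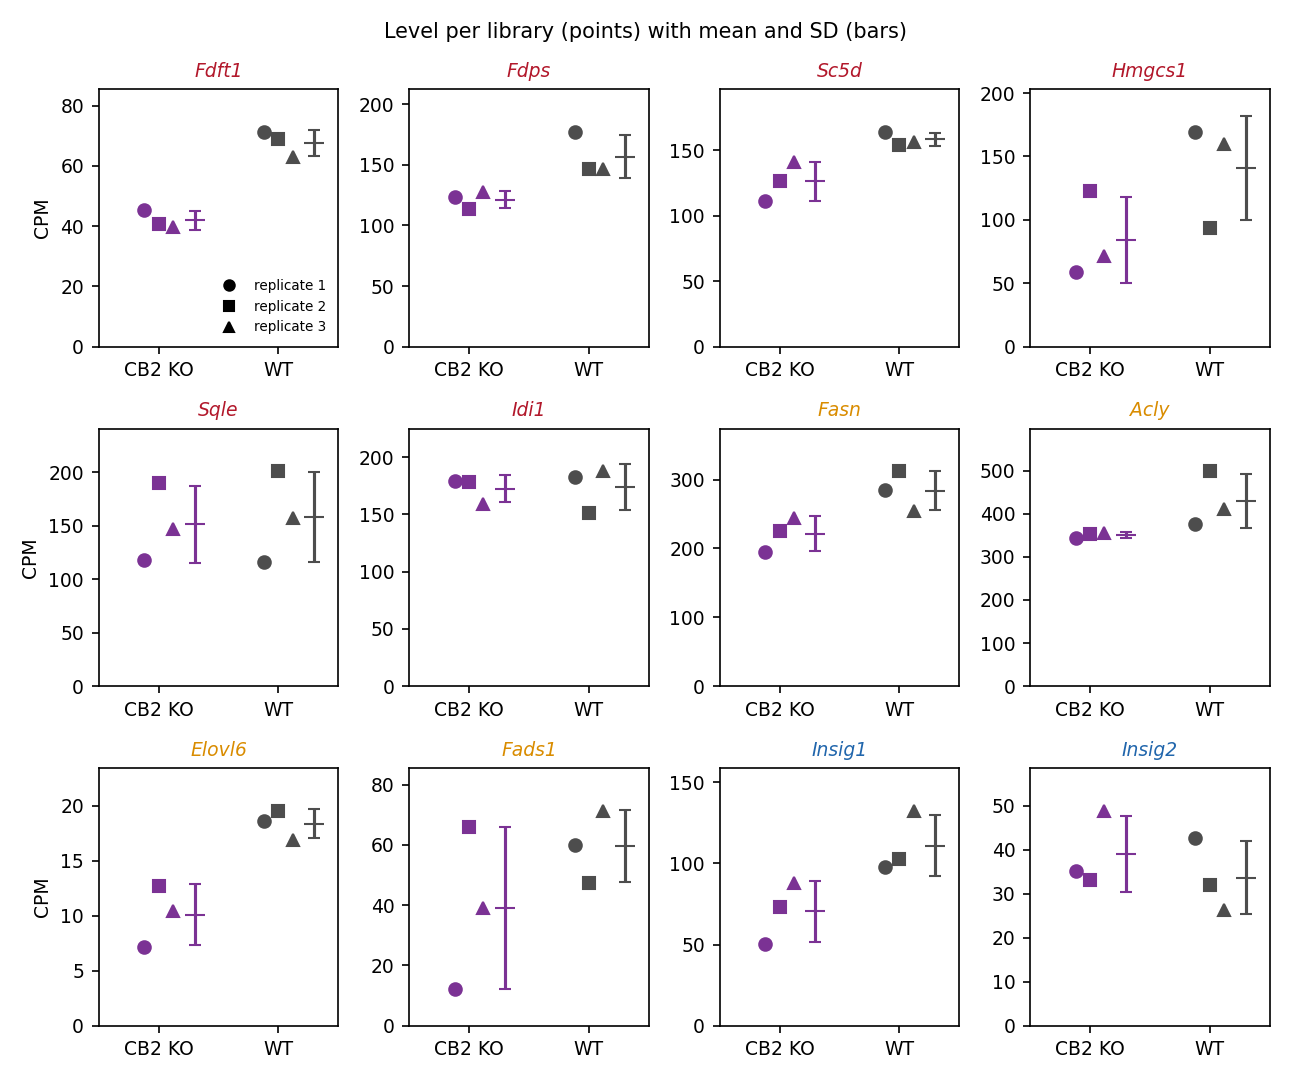
CPM of 12 members in each library, with CB2 KO left and WT right, points for libraries, and a dash with bars for the mean and SD of 3 libraries; title colours mark the branch (red sterol, orange fatty acid, blue regulators). Fdft1, Fdps, Sc5d, Fasn, Acly, Elovl6 and Insig1 show no overlap, whereas Hmgcs1, Sqle, Idi1, Fads1 and Insig2 overlap.

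In the fatty acid branch all 7 measured genes had a negative log2 difference, with a median of -0.36. In 3 of 7 every CB2 KO library lay below every WT library, against 7.18% of all genes tested. These 3 belong to the synthesis of the acyl chain. Acly, which splits citrate to give cytosolic acetyl-CoA (chromosome 11, 100476353 to 100528000), had the highest level of all members in CPM. It was at 343, 353 and 356 CPM in CB2 KO replicates 1 to 3, against 377, 498 and 412 CPM in WT. The CB2 KO libraries were close together and the WT libraries spread, at 18.2% lower in the mean (log2 difference -0.29, SE 0.11). Without WT replicate 2, the highest, the log2 difference of Acly was -0.17. Fasn, the fatty acid synthase (chromosome 11, 120805846 to 120824547), was at 195, 225 and 245 CPM in CB2 KO and 285, 312 and 255 CPM in WT, 22% lower, with CB2 KO replicate 3 close under WT replicate 3. Elovl6, which lengthens palmitate (chromosome 3, 129532355 to 129638495), had the lowest ratio of means of all members, at 7.15, 12.7 and 10.4 CPM in CB2 KO against 18.6, 19.5 and 16.9 CPM in WT. That was 44.9% lower, with a log2 difference of -0.86 (SE 0.31) and an adjusted p of 0.496 by edgeR's test. Acaca, the acetyl-CoA carboxylase, was low and overlapping, at 18.2, 15.9 and 13.4 CPM in CB2 KO and 30.2, 11.9 and 14.1 CPM in WT. Only WT replicate 1 was high for Acaca, and without it the log2 difference of -0.26 became 0.31.

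CB2 KO replicate 1 was the lowest library for all 3 measured desaturases. Scd2, a stearoyl-CoA desaturase (chromosome 19, 44293674 to 44306864), was at 85.4, 162 and 118 CPM in CB2 KO and 175, 128 and 168 CPM in WT. Fads1, the delta-5 desaturase, was at 12.1, 66.1 and 39.1 CPM in CB2 KO and 60.0, 47.4 and 71.3 CPM in WT. Its neighbour Fads2, the delta-6 desaturase, had 0, 236 and 199 counts in CB2 KO and 112, 116 and 251 counts in WT. The 0 allows up to 3 counts, or 0.149 CPM, while the other 2 CB2 KO libraries of Fads2, at 11.1 and 11.6 CPM, lay within the WT range of 5.22 to 14.2 CPM. Without CB2 KO replicate 1 the log2 difference of Fads2 was 0.50 instead of -0.11. With all libraries it was -2.40 by limma-voom and -2.03 on the authors' normalized values. With CB2 KO replicate 1 left out, Scd2 was at -0.15 instead of -0.36, Fads1 at -0.14 instead of -0.58, and the median of the 7 genes was -0.27.

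Of the 5 SREBP regulators, Insig1 differed most. Insig1 (chromosome 5, 28071363 to 28078662, plus strand) encodes an anchor of SCAP and is itself an SREBP target. It was at 50.5, 73.0 and 87.8 CPM in CB2 KO replicates 1 to 3, against 97.9, 102.7 and 132 CPM in WT. Every CB2 KO library lay below every WT library, at 36.5% lower in the mean, with a log2 difference of -0.66 (SE 0.22) and an adjusted p of 0.47 by edgeR's test. Insig2, its paralog, was at 35.1, 33.0 and 48.8 CPM in CB2 KO and 42.6, 32 and 26.3 CPM in WT, an overlap with a log2 difference of 0.18 (SE 0.26). Per exon length, the level of Insig1 was 1.61, 2.49 and 2.02 times that of Insig2 in CB2 KO, and 2.58, 3.61 and 5.64 times in WT. The groups do not overlap in this ratio, which was chosen after the values were seen, and an exact two-sided permutation test of its logarithm gave p = 0.1, the smallest that 3 against 3 allows.

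The factors themselves lay near WT outside 1 library. Srebf2, which encodes the main activator of sterol genes (chromosome 15, 82147181 to 82205379), was at 188, 306 and 260 CPM in CB2 KO and 279, 265 and 289 CPM in WT. CB2 KO replicate 2 was the highest of the 6 libraries for Srebf2 and CB2 KO replicate 1 the lowest, and without CB2 KO replicate 1 the log2 difference was 0.03 rather than -0.14. Srebf1, the main activator of fatty acid genes (chromosome 11, 60199089 to 60222581), was at 127, 207 and 217 CPM in CB2 KO and 199.5, 233 and 236 CPM in WT, with a log2 difference of -0.28 (SE 0.20). Without CB2 KO replicate 1 that of Srebf1 was -0.07. Scap, the escort protein, was at 73.0, 97.6 and 73.8 CPM in CB2 KO and 77.1, 90.7 and 104.2 CPM in WT, and its groups overlap. Per exon length Srebf1 and Srebf2 were at similar levels, 32.6 and 35.0 CPM per kb in CB2 KO and 39.5 and 38.6 CPM per kb in WT. The median log2 difference of the 5 regulators was -0.14. It was -0.06 with CB2 KO replicate 1 left out, -0.32 with CB2 KO replicate 2 left out and -0.25 with WT replicate 1 left out.

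**Figure D3:**
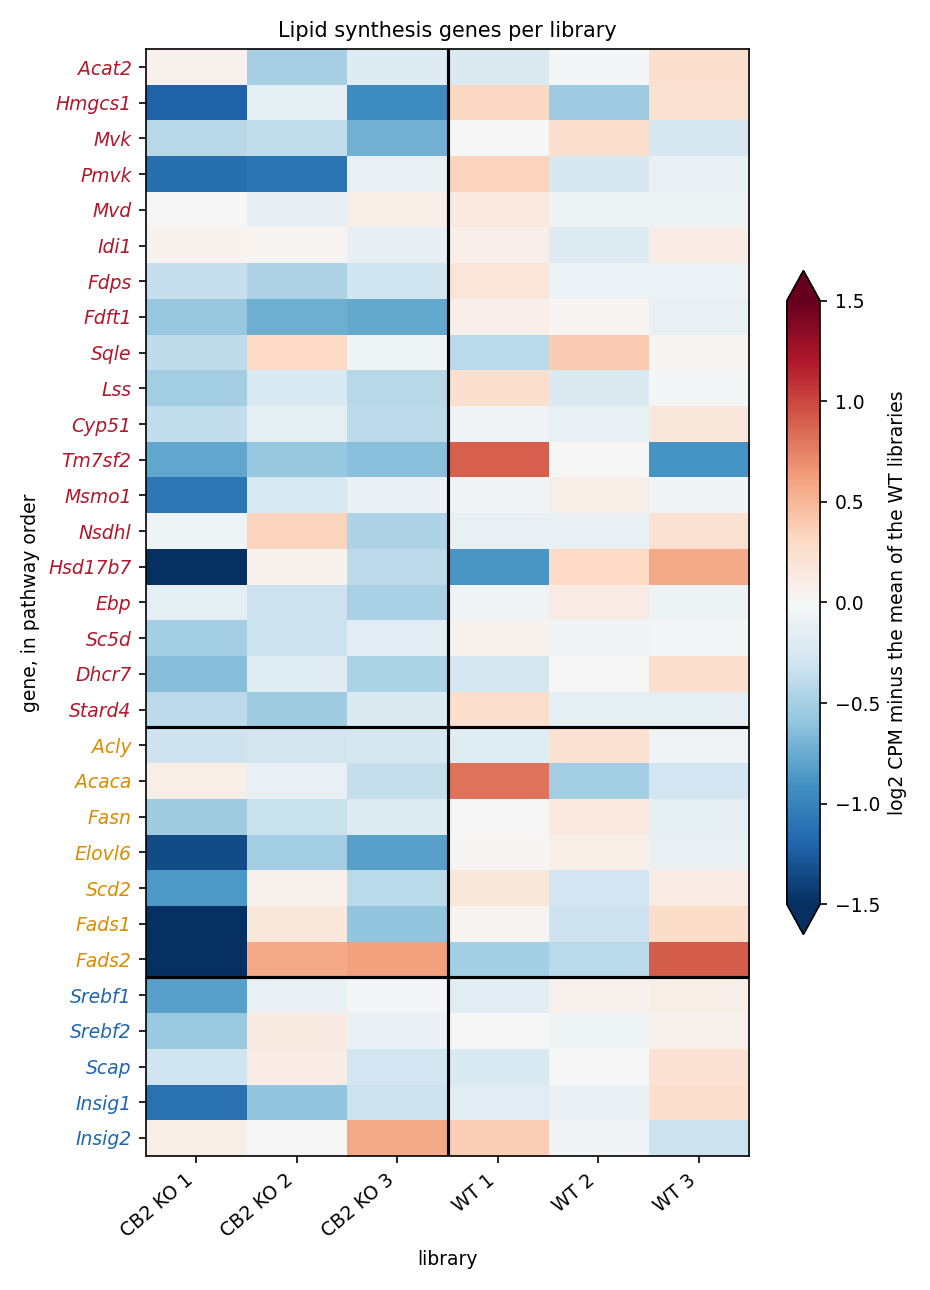
Log2 CPM of each member (rows, in pathway order) in each library (columns, CB2 KO left, WT right), minus the mean of the WT libraries; colours stop at 1.5 in both directions. CB2 KO replicate 1 is below the WT mean in 27 of 31 genes, replicate 2 in 21 and replicate 3 in 28. WT replicates 1 to 3 are below it in 13, 19 and 16 of 31, so CB2 KO replicate 2 is close to WT replicate 2 in this count. Of all 14084 genes tested, 7239, 6686 and 6458 are below it in CB2 KO replicates 1 to 3.

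The members differed between the CB2 KO libraries in size, and outside the sterol branch also in direction. CB2 KO replicate 2 was below the WT mean in 15 of 19 sterol genes. It was below in 4 of 7 fatty acid genes and 2 of 5 regulators. In WT replicate 2 these counts were 12, 4 and 3. Relative to the WT mean, the median over the 31 genes was -0.52, -0.19 and -0.29 log2 units in CB2 KO replicates 1 to 3, against 0.01, -0.04 and -0.01 in WT replicates 1 to 3. Over all genes tested the medians lay between -0.02 and 0.04 in every library. For the sterol branch they were -0.42, -0.23 and -0.39 in CB2 KO replicates 1 to 3, so replicate 3 was nearly as low as replicate 1. For the fatty acid branch they were -0.87, -0.11 and -0.35, and for the regulators -0.56, 0.00 and -0.10. CB2 KO replicate 1 was the lowest library for 17 of 31 genes (54.8%), against 28.1% of all genes tested. By branch it was lowest for 7 of 19 sterol genes, 6 of 7 fatty acid genes and 4 of 5 regulators. It was the highest library for 0 of 31, against 23.1% of all genes. Without it, 26 of 31 genes had a negative log2 difference, where 49.4% of the genes tested without it did, and the median log2 difference was -0.27. The 13 genes whose groups did not overlap necessarily stay apart when CB2 KO replicate 1 is dropped. No further member joined them with CB2 KO replicates 2 and 3 alone set against WT. The share of all genes that passed this looser rule was 11.4%, against 7.18% with all CB2 KO libraries.

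**Figure D4:**
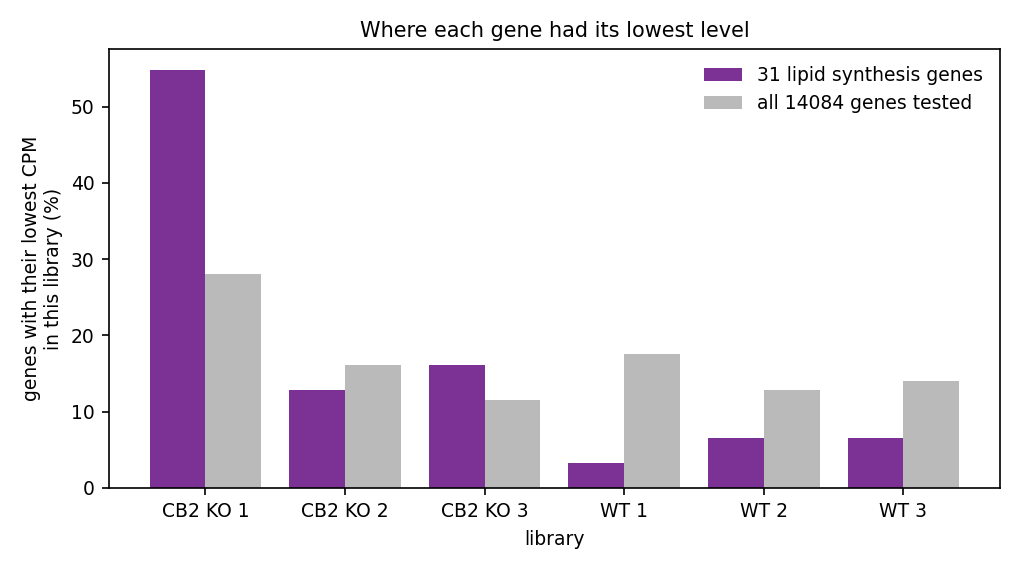
Share of genes (%) whose lowest CPM was in each library, CB2 KO left and WT right, for the 31 members and for all genes tested. CB2 KO replicate 1 holds the lowest value of 54.8% of members and 28.1% of all genes, and WT replicate 1 of 3.2% and 17.6%.

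Levels also differed along the pathway. Per exon length, Acly was the highest member, at 66.4 CPM per kb in CB2 KO and 81.2 CPM per kb in WT, followed in both groups by Idi1, Ebp and Cyp51 at 37.9 to 49.2 CPM per kb in CB2 KO and 46.7 to 51.7 CPM per kb in WT. Acaca, Tm7sf2, Elovl6 and Fads2 were at the low end, at 0.93 to 2.30 CPM per kb in CB2 KO and 1.09 to 2.85 CPM per kb in WT. These lengths are unions of all annotated exons, so genes with a long union, such as Acaca (17074 bases) and Lss (10787 bases), are understated. None of the 31 genes lies on chromosome 4, which carries Cnr2 (0 of 31, over 15 chromosomes).

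Other genes of the same pathways did not share the lower mean throughout. In 6 further lists with 76 tested genes, 0 passed edgeR's test in either direction. At an unadjusted p under 0.05 there were 5 with a negative difference (6.58%, against 4.27% of all genes) and 3 with a positive one (3.95%, against 4.33%). DESeq2 called 4 (5.26%, against 2.58%), namely Lbr, Rnf145, Lrp1 and Hacd3. Among 10 tested genes of sterol and isoprenoid synthesis, 5 were negative and 5 positive (median log2 difference -0.06). Lbr, a sterol reductase and nuclear envelope protein, was at 352, 431 and 492 CPM in CB2 KO and 536, 551 and 617 CPM in WT with no overlap. Dhdds, which makes dolichol rather than sterols, had the higher mean in CB2 KO with no overlap, at 68.1, 71.5 and 66.7 CPM in CB2 KO and 37.2, 55.4 and 45.9 CPM in WT.

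Of 13 tested genes of SREBP cleavage and sterol-sensing degradation, 8 were negative (median -0.29). Rnf145, an E3 ligase of the endoplasmic reticulum, was at 178, 159 and 181 CPM in CB2 KO and 206, 269 and 240.4 CPM in WT. Paqr3, which anchors SCAP and SREBP in the Golgi, was low, with 0 to 4.09 CPM in CB2 KO and 2.87 to 11.0 CPM in WT. Of 13 tested genes of sterol uptake and transport, 6 were negative and 7 positive (median 0.07). Lrp1, a large lipoprotein receptor, had 213, 36 and 81 counts in CB2 KO and 0 in each WT library. A count of 0 there allows up to 0.140 to 0.170 CPM. Macrophage markers also had higher means in CB2 KO, though none passed the test, and their part was not tested.

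Of 11 tested genes of LXR signalling, sterol efflux and esterification, 6 were negative (median -0.10), with Nceh1 at 44.2 ± 11.8 CPM in CB2 KO and 66.3 ± 12.5 CPM in WT and Abca7 at 131 ± 31.9 and 100.4 ± 4.47 CPM (SD, n = 3 each). Of 17 further genes of fatty acid synthesis and acetyl-CoA supply, 11 were negative (median -0.07). Hacd3, a dehydratase of very long chain elongation, had the smallest adjusted p of all 6 lists, 0.0988 by edgeR. It was at 340, 318 and 348 CPM in CB2 KO and 244, 245 and 233 CPM in WT, higher in CB2 KO with no overlap. Elovl1, an elongase of the same cycle, was at 137 ± 11.8 CPM in CB2 KO and 166 ± 18.5 CPM in WT. Of 12 glycerolipid synthesis genes, 8 were negative (median -0.05), with Agpat2 at 20.9 ± 5.86 CPM in CB2 KO and 32.1 ± 2.57 CPM in WT and Acsl3 at 23.9 ± 10.5 and 46.2 ± 23.3 CPM.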

How the data were processed

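RNA of sorted lung ILC2s was measured in 3 CB2 KO and 3 WT libraries, grouped by sample title. Estimated counts by gene and library are as the authors deposited them, made with Partek E/M per the file names. Named in the submitters' processing notes are mm10, Partek, CASAVA 1.8.2 and STAR (version given as 3.5.3). Reads fitting more than 1 gene are divided, and 56.8% of values lay within 0.01 of a whole number. The authors also deposited a normalized signal, (count + 1, over 1 factor for each library), used as an alternative. After rounding, counts were fitted in edgeR 4.0.16 under R 4.3.3. Scaling was by TMM, filterByExpr removed 4394 genes, the fit was glmQLFit (robust=TRUE, legacy=FALSE) and the test glmQLFTest. Adjustment was by Benjamini-Hochberg over all genes, with a threshold of 0.05. Standard errors are the log2 difference divided by the root of F. Library shifts use log2 CPM with a prior count of 2. DESeq2 1.42.0 and limma 3.58.1 gave alternatives, and the workflow was tested on simulated data. Gene ends are 1 below the deposited stops, as in GENCODE M21, which also gave exon lengths. Copies were found with BLAST 2.17.0 (at least 95% identity over 500 nt). Limits for counts of 0 cover counting error only. No 2 libraries agreed within counting error (smallest chi-square/df 32.9). Deviations of same-numbered libraries correlated at 0.07, 0.03 and 0.02, so numbers were not taken as pairs. Members and lists were chosen with earlier results of these data known. All members are named. Values per library are given for the regulators and for at least the 10 sterol and 4 fatty acid genes with the smallest p; from each further list, the 2 genes with the smallest p were named, except where a gene is not reported here.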

Additional observations from a re-analysis of the deposited data

How the results depend on the processing

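Of 16 alternatives, 1 changed the count of 0 members past the threshold: DESeq2 called 1, Fdft1 (log2 difference -0.68). The count of members with a negative log2 difference, 29, ran from 26 (without CB2 KO replicate 1) to 30, and no branch median changed sign. The sterol median of -0.39 ran from -0.41 to -0.32 when each library was left out in turn. The fatty acid median of -0.36 was -0.59 without CB2 KO replicate 2. Some genes changed sign, and not all of them were near 0, since Acaca was at -0.26. Nsdhl, at 0.0002, was -0.0212 by DESeq2, -0.0745 on the authors' normalized values, -0.0323 with legacy=TRUE, -0.0239 by limma-voom, -0.0012 at a mean count of at least 100, -0.0029 with no filter and -0.008 with the replicate block. Idi1, at -0.007, was 0.0028 with DESeq2 size factors, 0.0172 with library size alone and 0.0012 by limma-voom, and Mvd, at -0.02, was 0.0009 with library size alone. With libraries left out in turn, log2 differences ran from -0.23 to 0.16 for Nsdhl, -0.10 to 0.0461 for Idi1, -0.0721 to 0.058 for Mvd, -0.59 to 0.50 for Fads2, -0.26 to 0.16 for Sqle, -0.32 to 0.0342 for Srebf2, -0.0017 to 0.39 for Insig2 and -0.52 to 0.31 for Acaca. Fads2 was -2.40 by limma-voom and -2.03 on the authors' normalized values. The cause was not tested. With the replicate block 0 members passed, as without it, and 30 were negative. The block used the replicate numbers, which the labels do not state to be pairs. The 15 genes called over the whole table were 3 to 8 with a library left out, 3 with the block, 35 at a mean count of at least 100 and 363 by DESeq2. Adding the counts of copies, chosen after seeing the data, left 0 members past the threshold and 29 negative.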

Other observations

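Some copies of members had their own rows. Gm6781, a processed pseudogene of Fdft1 with 97.4% identity over 1249 nt, was at 8.04, 7.61 and 7.89 CPM in CB2 KO replicates 1 to 3 and 12.2, 13.5 and 12.1 CPM in WT. Its groups did not overlap, as those of Fdft1 did not, and reads of the 2 cannot be told apart where they are identical. Gm5182, a pseudogene of Acaca with 99.2% identity over 6118 nt, was at 5.22, 3.57 and 4.48 CPM in CB2 KO and 10.8, 7.44 and 9.77 CPM in WT, with no overlap, whereas Acaca overlapped. Adding the counts of Gm5182 to Acaca gave a log2 difference of -0.48 (adjusted p = 0.763 by edgeR), against -0.26 for Acaca alone. Gm13502, the copy of Idi1, averaged 43.9 ± 6.97 CPM in CB2 KO and 45.2 ± 2.15 CPM in WT.

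Replicates of the members spread about as widely as those of other genes. The median coefficient of variation over the 31 genes was 17.2% in CB2 KO and 15.9% in WT, against 19.1% in CB2 KO and 16.9% in WT over the 10497 genes averaging 100 counts or more. In the sterol branch it was 11.9% in CB2 KO and 15.9% in WT, and in the fatty acid branch 27.8% in CB2 KO and 16.2% in WT.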
